A study of Homo sapiens with 8 samples.

Results

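UBD, PSMB8, PSMB9, PSMB10, PSME1 and PSME2 encode a ubiquitin-like modifier, the 3 inducible catalytic subunits of the proteasome and both subunits of its PA28 activator. These 6 genes, of 20046 genes with an annotated symbol on the arrays, were chosen by symbol after earlier results of the same arrays were known. They had 11 probes, 1 for UBD, 4 for PSMB8, 2 for PSMB9, 1 for PSMB10, 2 for PSME1 and 1 for PSME2. All 11 passed the filter on dim probes, as did 12719 of all genes. Which values prompted the choice is not recorded, so the values of these genes are a description of the arrays and not independent evidence of any direction.

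RNA was measured in BCBL1 and BC3, established lines of primary effusion lymphoma, a B-cell lymphoma of body cavities that carries Kaposi sarcoma herpesvirus. Each line was grown in the same medium with 5 µM lenalidomide or with its solvent DMSO, which gave 4 groups, BCBL1 with lenalidomide, BCBL1 with DMSO, BC3 with lenalidomide and BC3 with DMSO. Lenalidomide acts through cereblon, a ubiquitin ligase subunit that picks substrates, and sends the transcription factors IKZF1 and IKZF3 to the proteasome. Each group had 2 Illumina 1-colour arrays, described by the series as technical replicates, so every p-value below measures the spread between arrays and not between cultures. No exposure time is stated in the labels.

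The proteasome is the barrel-shaped protease that degrades proteins tagged with ubiquitin. Interferon gamma and tumour necrosis factor induce PSMB8 (LMP7), PSMB9 (LMP2) and PSMB10 (MECL1), which replace the constitutive catalytic subunits PSMB5, PSMB6 and PSMB7 in newly built barrels, and the resulting immunoproteasome favours cuts that yield peptides for MHC class I. PSME1 and PSME2 form the PA28 ring, a cap that opens the barrel and is induced by the same cytokines. UBD, better known as FAT10, holds a tandem of ubiquitin-like domains, is induced by the same cytokines and delivers the proteins to which it is attached to the proteasome.

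The genes lie close to each other in part, by the RefSeq annotation of GRCh38.p14. PSMB8 (chr6:32840717-32844679) and PSMB9 (chr6:32854192-32859851) flank the peptide transporter gene TAP1 (chr6:32845209-32853704) in the MHC class II region, and the TAP1 and PSMB9 starts lie 488 bases apart on opposite strands. UBD lies in the MHC class I region of the same chromosome (chr6:29555515-29559732). PSME1 (chr14:24136194-24138962) and PSME2 (chr14:24143365-24146610) are separated by 4403 bases, and PSMB10 stands alone at chr16:67934506-67936850. The antisense gene PSMB8-AS1 (chr6:32844086-32846500) overlaps the start of PSMB8. The files do not place the probes on a strand or position, so antisense signal cannot be told apart there.

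The promoters of the 6 genes were searched for a motif of interferon regulatory factors and for the NF-kB consensus. Whether either motif has a part in the differences described below was not tested. RefSeq windows of GRCh38.p14 (from 250 bases before to 50 bases after each annotated start) were searched on both strands for the paired GAAA motif of interferon regulatory factors (IRF), GAAANNGAAA. It stood in PSMB8, at the second of its annotated starts, in PSMB10, in PSME1 and in PSME2, against 3.57% of 35116 windows in the table. All of these matches had the same letters, GAAAGCGAAA or its reverse complement, a form that 35 windows (0.0997%) held and that was picked after the matches were seen. The same form stood before TAP1, 360 bases from the PSMB9 start, and before TAP2. The stretches of these members and of TAP1 are printed in the gene's own direction, with the match to GAAAGCGAAA in capitals, and that of TAP2 is not printed. TAP1 also holds the paired match GAAATCGAAA at positions -134 to -125, of which only the overlap with the other match is in capitals.
PSMB8, chr6:32844032-32844061, minus strand: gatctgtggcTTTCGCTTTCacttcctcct
PSMB10, chr16:67936852-67936881, minus strand: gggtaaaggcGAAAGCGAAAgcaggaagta
PSME1, chr14:24136189-24136218, plus strand: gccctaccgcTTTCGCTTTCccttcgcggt
PSME2, chr14:24146619-24146648, minus strand: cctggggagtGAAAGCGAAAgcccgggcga
TAP1, chr6:32853813-32853842, minus strand: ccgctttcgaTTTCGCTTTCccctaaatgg
PSMB8 and PSME1 carry the match across or just after the start, while PSMB10 and PSME2 carry it just before.

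The windows of UBD and PSMB9 held no paired motif. UBD held a match to the NF-kB consensus at positions -53 to -44 relative to its start. TAP1 also held one, at positions -72 to -63, beside its paired matches. Matches to that consensus stood in 8.4% of all windows. The 150 bases before the UBD start are shown, with the match in capitals, because UBD was the gene of the set that was called with lenalidomide.
UBD, chr6:29559733-29559882, minus strand: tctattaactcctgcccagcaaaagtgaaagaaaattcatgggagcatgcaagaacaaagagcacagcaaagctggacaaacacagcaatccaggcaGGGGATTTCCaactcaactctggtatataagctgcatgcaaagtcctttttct
A match to letters is a description of the sequence and shows no binding.

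**Figure D1:**
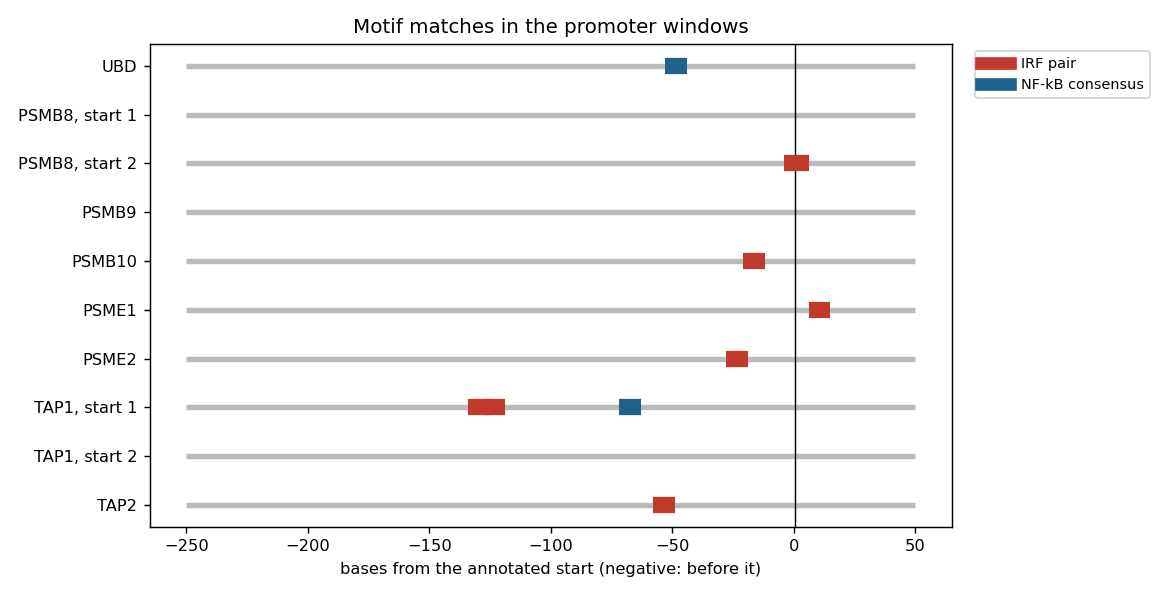
Motif matches in the promoter windows of the 6 genes and of TAP1 and TAP2. The x axis gives bases from the annotated start, each grey line is 1 window, and coloured blocks are matches to the paired IRF motif (red) and the NF-kB consensus (blue). PSMB8, PSMB10, PSME1, PSME2, TAP1 and TAP2 have a red block, UBD and TAP1 have a blue block, and PSMB9 has none.

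Median intensity per array lay between 137 and 153, and 47.3% to 49.4% of the probes of an array were above background. Across genes, which are not independent replicates, Pearson's r lay between 0.994 and 0.995 within a group and between 0.921 and 0.929 for arrays of different lines. Of 8 plasma cell and immunoblast markers, 7 were above background on both arrays of every group. Of 7 B-cell identity markers on the array, 0 were. CD79A and CD79B were above background on 7 of 8 arrays, BLK on the 4 BC3 arrays, and PAX5 on no array. The number of arrays limits the precision of all values.

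UBD rose with lenalidomide in BC3. Its probe, ILMN_1678841, had intensities of 626 and 514 on the BC3 lenalidomide arrays, against 194 and 199 on the BC3 DMSO arrays. Both treated arrays stood well above both solvent arrays. On the normalized log2 scale UBD averaged 8.90 ± 0.02 with lenalidomide and 7.04 ± 0.09 with DMSO (SD, n = 2 arrays each). The rise was 1.86 ± 0.14 on the log2 scale (± is the standard error in limma's fit over all genes, here and below), a 3.63-fold change with a 95% interval of 1.55 to 2.17 on the log2 scale and limma's adjusted p = 6.50e-06. It ranked 12 among the log2 changes of 12719 genes in BC3, from the highest down. In the authors' deposited log2 values the change was 2.51. The offset of the background correction adds the same amount to both groups and so understates the change of a dim probe such as this one.

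In BCBL1 the UBD probe was near background in both treatments. Its intensities were 153 and 180 on the BCBL1 lenalidomide arrays, against 159 and 141 on the BCBL1 DMSO arrays, and the array at 141 was not above background. The intensities of the treatments overlapped, while the normalized values did not, at 6.81 ± 0.18 with lenalidomide and 6.45 ± 0.26 with DMSO (SD, n = 2 arrays each). The log2 value was 0.36 ± 0.14 (limma's adjusted p = 0.226, unadjusted p = 0.0257, 95% interval 0.05 to 0.68), which did not pass the threshold of 0.05. The lenalidomide effect on UBD was smaller in BCBL1 than in BC3, with a difference of -1.50 ± 0.20 on the log2 scale, BCBL1 minus BC3 (limma's adjusted p = 0.00501). That call was lost with an offset of 16 (adjusted p = 0.128) and in the authors' deposited log2 values (adjusted p = 0.152), where the differences were -1.62 and -1.80.

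**Figure D2:**
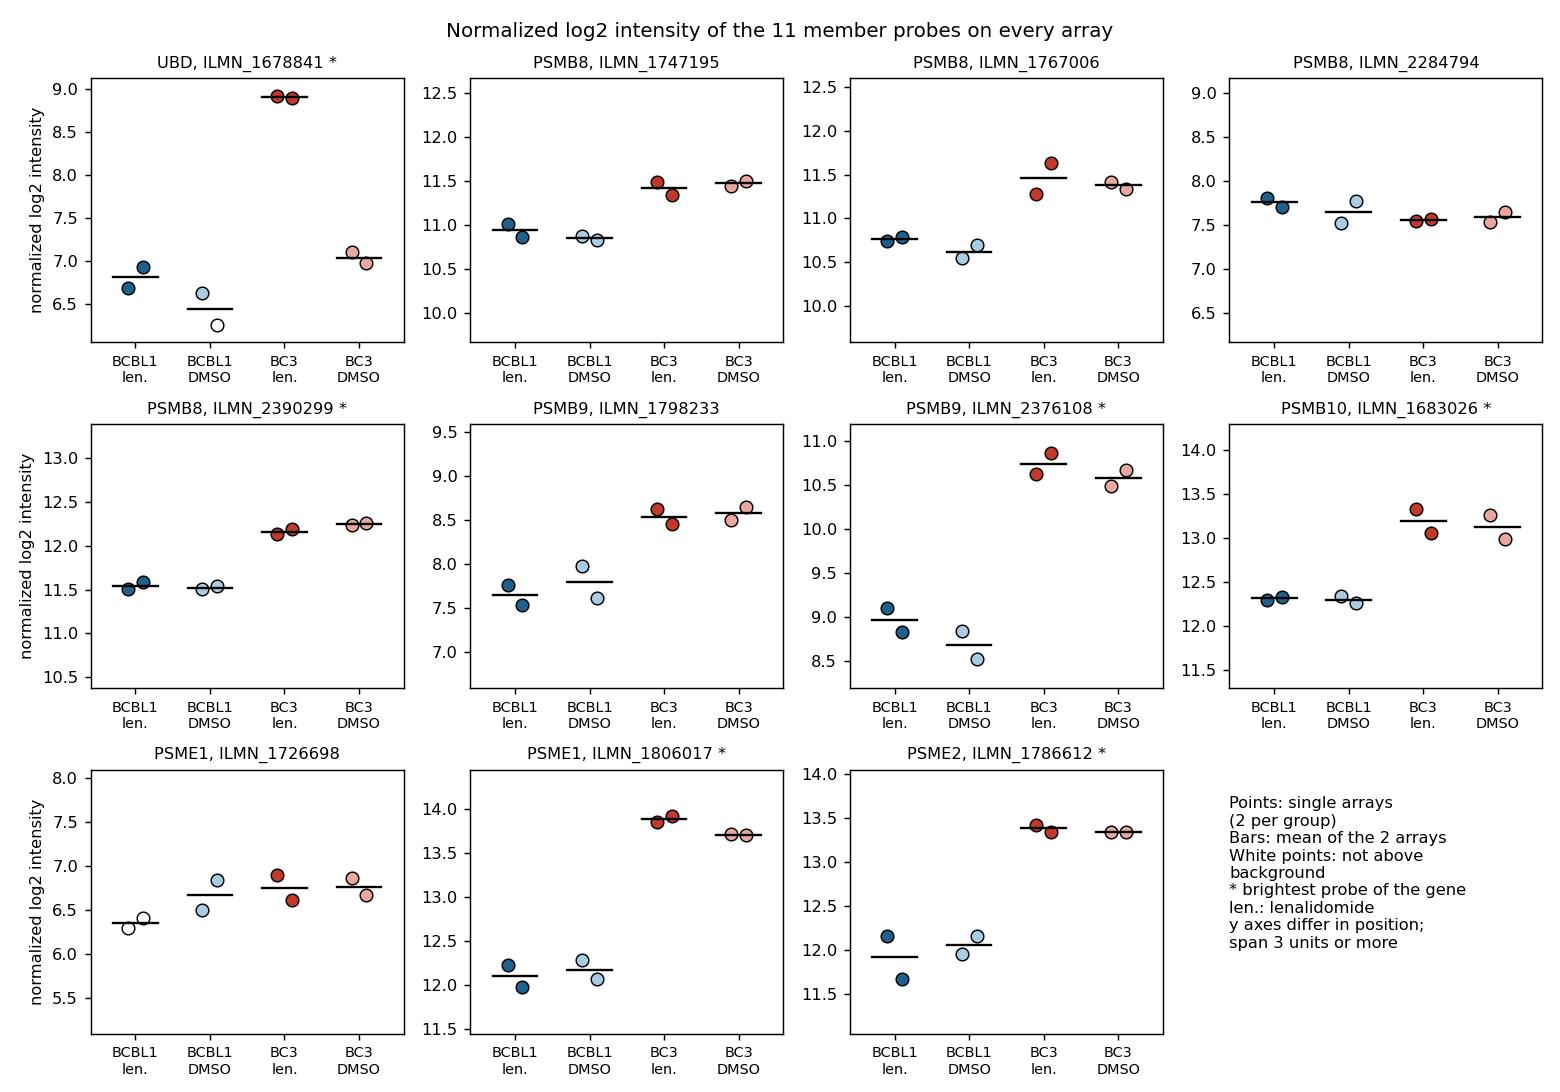
Normalized log2 intensity (y axis) of each of the 11 probes on every array, by group (x axis). Points are single arrays, horizontal bars are the mean of the 2 arrays of a group, and white points are not above background. The UBD points of BC3 with lenalidomide average 8.90, above the 3 other groups, and 9 of 11 probes have all BCBL1 points below all BC3 points.

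The other 5 genes showed no change that passed the threshold with lenalidomide in either line. Counting UBD, 1 of 6 was called higher and 0 lower in BC3, where 3.25% of all genes tested were called higher and 1.20% lower. In BCBL1 0 of 6 were called in either direction, with UBD as the 1 member at an unadjusted p under 0.05, against 2.18% of all genes called higher and 0.755% lower. For the difference between the lines, 0 of 6 were called higher and UBD alone lower, against 0.173% and 0.322% of all genes. The median log2 change of the 6 genes was 0.02 in BCBL1 and 0.11 in BC3, beside a median over all genes of -0.01 in both lines. With few arrays, a missed threshold does not show that a gene stayed level, and the intervals below give the range left by these arrays.

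PSMB8, the chymotrypsin-like subunit of the immunoproteasome, had intensities of 2545 and 2951 on the BCBL1 lenalidomide arrays, against 3000 and 3298 on the BCBL1 DMSO arrays, at its brightest probe ILMN_2390299. In BC3 it had 4998 and 4316 with lenalidomide, against 4647 and 5575 with DMSO. After normalization the log2 change was 0.02 ± 0.11 in BCBL1 and -0.09 ± 0.11 in BC3 (limma's adjusted p = 0.945 and 0.760). The ranges of both treatments overlapped in BCBL1, and in BC3 both lenalidomide arrays lay just under both DMSO arrays. The 3 other PSMB8 probes were not called in either line, with log2 changes of 0.09 to 0.14 in BCBL1 and -0.05 to 0.08 in BC3.

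PSMB9, which takes the place of the caspase-like subunit PSMB6, had 511 and 481 at its brightest probe ILMN_2376108 in BCBL1 with lenalidomide, against 506 and 441 with DMSO. In BC3 it had 1841 and 1768 with lenalidomide, against 1481 and 1910 with DMSO. The groups overlapped in each line. The log2 change was 0.29 ± 0.15 in BCBL1, with an interval of -0.04 to 0.61, and 0.16 ± 0.15 in BC3, with an interval of -0.16 to 0.49 (limma's adjusted p = 0.371 and 0.652). The other probe, ILMN_1798233, had values of the other sign, -0.15 in BCBL1 and -0.04 in BC3, and was not called either.

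PSMB10, the trypsin-like subunit, had 4409 and 4939 on its single probe ILMN_1683026 in BCBL1 with lenalidomide, against 5377 and 5430 with DMSO. It had 11423 and 7777 in BC3 with lenalidomide, against 9543 and 9233 with DMSO. These intensities are not yet scaled between arrays, and the normalized values of the treatments overlapped in both lines. The log2 change was 0.01 ± 0.14 in BCBL1 and 0.07 ± 0.14 in BC3 (limma's adjusted p = 0.978 and 0.861).

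Of the PA28 subunits, PSME1 had 4205 and 3858 at its bright probe ILMN_1806017 in BCBL1 with lenalidomide, against 5187 and 4778 with DMSO. In BC3 it had 16360 and 14284 with lenalidomide, against 12906 and 15105 with DMSO. The log2 change was -0.08 ± 0.13 in BCBL1 and 0.18 ± 0.13 in BC3 (limma's adjusted p = 0.826 and 0.549). Normalized values overlapped in BCBL1, and in BC3 both lenalidomide arrays lay above both DMSO arrays by less than the threshold asks. The dim PSME1 probe ILMN_1726698 had 132 and 145 in BCBL1 with lenalidomide, not above background, against 151 and 181 with DMSO. With the lowest signal above background in place of its lenalidomide signal, its mean was 1.18-fold lower than with DMSO. The change was not called (limma's adjusted p = 0.358), and its log2 interval of -0.64 to 0.01 included 0.

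PSME2, the partner of PSME1 in the ring, had 4047 and 3117 at its probe ILMN_1786612 in BCBL1 with lenalidomide, against 4132 and 5100 with DMSO. In BC3 it had 12407 and 9517 with lenalidomide, against 10127 and 11747 with DMSO. The treatments overlapped in both lines after normalization. The log2 change was -0.14 ± 0.15 in BCBL1, with an interval of -0.48 to 0.19, and 0.04 ± 0.15 in BC3 (limma's adjusted p = 0.698 and 0.930). Over all 11 probes 0 were called in BCBL1 and 1, that of UBD, in BC3, against 1.74% and 2.64% of all probes.

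**Figure D3:**
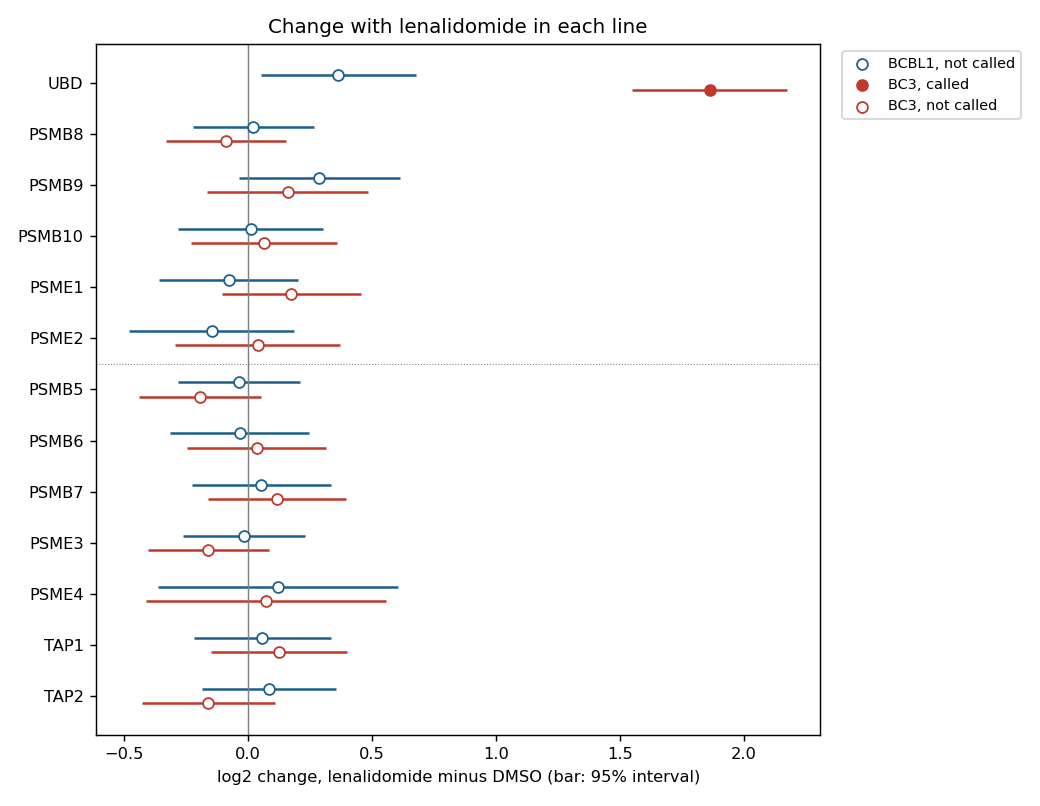
The log2 change with lenalidomide over DMSO (x axis) in BCBL1 (blue) and BC3 (red) for the 6 genes, above the dotted line, and for 7 related genes below it. Points are limma estimates from 2 arrays per group, bars are 95% intervals, and filled points passed an adjusted p of 0.05. The filled point is UBD in BC3 at 1.86, and the intervals of all other points but UBD in BCBL1 include 0.

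No change with lenalidomide was called in the rest of the proteasome. Of 31 other proteasome genes tested (constitutive catalytic subunits, other 20S subunits, the 19S regulatory particle, PSME3 and PSME4), 0 were called in BCBL1 and 0 in BC3, and their median log2 changes were 0.04 and -0.01. The 31 include 2 genes in BCBL1 and 1 in BC3 with an unadjusted p under 0.05. The 9 assembly factors tested and the 6 genes that attach FAT10 or bind it (UBA6, its activating enzyme, UBE2Z, its conjugating enzyme, and NUB1, SQSTM1, HDAC6 and VCP) also had 0 calls in both lines, with 1 gene of each list at an unadjusted p under 0.05 in BCBL1. Among 8 other ubiquitin-like modifiers tested, ISG15, the interferon-induced modifier, fell in BCBL1 by 0.86 ± 0.15 (limma's adjusted p = 0.00684) and had 0.14 ± 0.15 in BC3. The difference of the ISG15 effect between the lines was not called (adjusted p = 0.0690), unlike that of UBD. None of the 9 tested genes of peptide transport and trimming was called by limma (2 in BCBL1 and 1 in BC3 at an unadjusted p under 0.05), and TAP1 had 0.06 ± 0.13 in BCBL1 and 0.13 ± 0.13 in BC3.

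Some regulators of the 6 genes changed. Of 23 interferon and NF-kB regulators tested, 3 were called higher and 0 lower in BCBL1, and 2 higher and 1 lower in BC3. Over all genes 2.18% were called higher and 0.755% lower in BCBL1, and 3.25% higher and 1.20% lower in BC3. TNFRSF1A, the main receptor for tumour necrosis factor, rose in both lines, by 0.76 ± 0.12 in BCBL1 and 0.80 ± 0.12 in BC3. IRF1, an activator of immunoproteasome genes, rose by 0.61 ± 0.12 in BCBL1 and had 0.30 ± 0.12 in BC3 (limma's adjusted p = 0.0191 and 0.233). IRF9, a subunit of the interferon-activated ISGF3 complex, rose by 0.72 ± 0.14 in BCBL1 and had 0.47 ± 0.14 in BC3 (adjusted p = 0.0129 and 0.0862). IRF7 rose by 0.68 ± 0.15 and the NF-kB subunit RELB fell by 0.52 ± 0.13 in BC3 (adjusted p = 0.0178 and 0.0374). None of the 4 regulators called in a single line passed the test of the difference between lines, whose adjusted p lay between 0.272 for RELB and 0.709 for IRF9. The 5 members other than UBD were called in neither line.

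Markers of several cell types were called with lenalidomide. Of 6 myeloid markers tested, 3 rose in BC3, S100A9 by 2.91 ± 0.14, S100A8 by 2.47 ± 0.15 and CD68 by 0.67 ± 0.14. In BCBL1 0 of these 6 were called, with 1 at an unadjusted p under 0.05. Their intensities summed over 8 markers were 1309 to 1374 in BCBL1 with lenalidomide, against 1442 to 1473 with DMSO, and 2725 to 3318 in BC3 with lenalidomide, against 1406 to 1601 with DMSO. LYZ, a defining marker, was above background on no array. Of 7 epithelial and stromal markers tested, 2 were called higher and 0 lower in each line, KRT8 and CDH1. KRT8 rose by 1.49 ± 0.11 in BCBL1 and 1.86 ± 0.11 in BC3. CDH1 was near background in BCBL1, at 148 and 173 with lenalidomide against 132 and 133 with DMSO. The median log2 change of the 7 was 0.23 in BCBL1, with a lowest of -0.36, and 0.08 in BC3, with a lowest of -0.12. Of 7 plasma cell and immunoblast markers tested, MUC1 was called higher and TNFRSF17 lower in each line. MUC1 rose by 0.91 in BCBL1 and 3.05 in BC3. Among 4 T and NK cell markers tested, CD2 was called higher in each line and CD3E lower in BC3. None of the 3 B-cell markers tested was called in either line. The shares over all genes were 2.18% higher and 0.755% lower in BCBL1, and 3.25% higher and 1.20% lower in BC3. The part of these changes in the UBD result was not tested. In bulk RNA of a line, more cells that express a gene and more RNA per cell cannot be told apart.

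**Figure D4:**
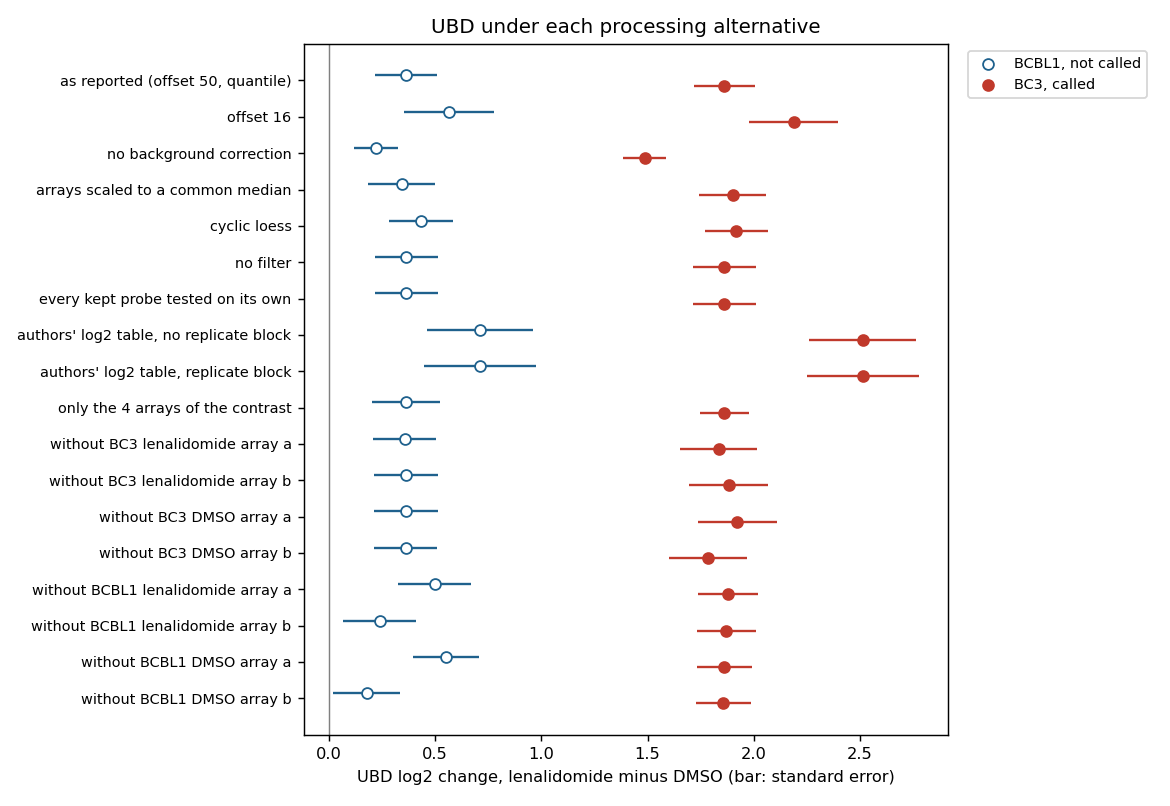
The log2 change of UBD with lenalidomide over DMSO (x axis) under each processing alternative (y axis) in BCBL1 (blue) and BC3 (red). Points are estimates, bars are standard errors, and filled points passed an adjusted p of 0.05. BC3 points lie between 1.49 and 2.51 and are all filled, while BCBL1 points lie between 0.18 and 0.71 and are all open.

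All 6 genes were lower in BCBL1 than in BC3, with lenalidomide and with DMSO. Under lenalidomide 6 of 6 were called lower and 0 higher, where 21.6% of all genes were lower and 20.7% higher. Under DMSO 6 of 6 were lower and 0 higher, where 20.7% of all genes were lower and 20.3% higher. The same shares of all genes stand beside the counts of other gene lists below. The 2 comparisons share no array but hold the same 2 lines, 1 of each, so they compare these lines alone. The median log2 difference of the 6 genes, BCBL1 minus BC3, was -1.62 under lenalidomide and -1.06 under DMSO, beside 0.01 over all genes in both.

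Among the inducible catalytic subunits PSMB9 differed most. Its log2 difference was -1.77 ± 0.15 under lenalidomide and -1.90 ± 0.15 under DMSO, so that BCBL1 was 3.42-fold and 3.74-fold lower (limma's adjusted p = 6.87e-07 and 3.76e-07). The other PSMB9 probe gave -0.89 and -0.78 in the same comparisons, both called. PSMB10 was lower by 1.84-fold under lenalidomide and 1.77-fold under DMSO, with log2 differences of -0.88 ± 0.14 and -0.83 ± 0.14 (adjusted p = 0.000158 and 0.000278). PSMB8 was lower by 1.53-fold and 1.65-fold, with log2 differences of -0.61 ± 0.11 and -0.72 ± 0.11 (adjusted p = 0.000660 and 0.000186).

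Both PA28 subunits were lower in BCBL1. PSME1 had log2 differences of -1.79 ± 0.13 under lenalidomide and -1.54 ± 0.13 under DMSO, which is 3.45-fold and 2.90-fold lower (limma's adjusted p = 1.50e-07 and 7.03e-07). PSME2 had -1.47 ± 0.15 and -1.28 ± 0.15, which is 2.77-fold and 2.43-fold lower (adjusted p = 5.17e-06 and 1.91e-05). For these 5 genes the brightest probe read lower on every BCBL1 array than on every BC3 array.

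UBD was 4.26-fold lower in BCBL1 under lenalidomide, a log2 difference of -2.09 ± 0.14 (limma's adjusted p = 9.37e-08). The size moved with the processing, to -2.96 in the authors' deposited log2 values and to -1.64 with no background correction, and the difference was called in both. Under DMSO it was 1.51-fold lower, with -0.59 ± 0.14 (adjusted p = 0.00502). Without BCBL1 DMSO array b, the array where UBD was not above background, the DMSO difference was -0.41 and was no longer called (adjusted p = 0.0641). In the order of the 4 group means, BC3 with lenalidomide stood first, then BC3 with DMSO, BCBL1 with lenalidomide and BCBL1 with DMSO, with gaps of 1.86, 0.23 and 0.36 on the log2 scale. No neighbours overlapped, but the gaps of 0.23 and 0.36 are of the size of the spread between arrays, whose SD reached 0.26 in BCBL1 with DMSO. For the other 5 genes both BC3 groups stood above both BCBL1 groups, and within a line the treatments overlapped except for PSMB8 and PSME1 in BC3.

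Probes of one gene did not all read the same difference. Of the 11 probes 9 were called under lenalidomide and 9 under DMSO, all of them lower in BCBL1, where 34.0% and 33.2% of all probes were called in either direction. The 2 exceptions were dim. PSMB8 probe ILMN_2284794 had 250 and 257 in BCBL1 with lenalidomide, against 276 and 244 in BC3 with lenalidomide, with log2 differences of 0.20 ± 0.13 under lenalidomide and 0.06 ± 0.13 under DMSO (limma's adjusted p = 0.262 and 0.763). PSME1 probe ILMN_1726698 was not above background on the BCBL1 lenalidomide arrays, at 132 and 145, against 193 and 155 in BC3 with lenalidomide. With the lowest signal above background in place of its BCBL1 signal, its mean was 1.26-fold lower in BCBL1 under lenalidomide. The difference was not called (limma's adjusted p = 0.0514), and its DMSO difference was -0.10 ± 0.15. The transcripts that these probes match were not analysed here.

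**Figure D5:**
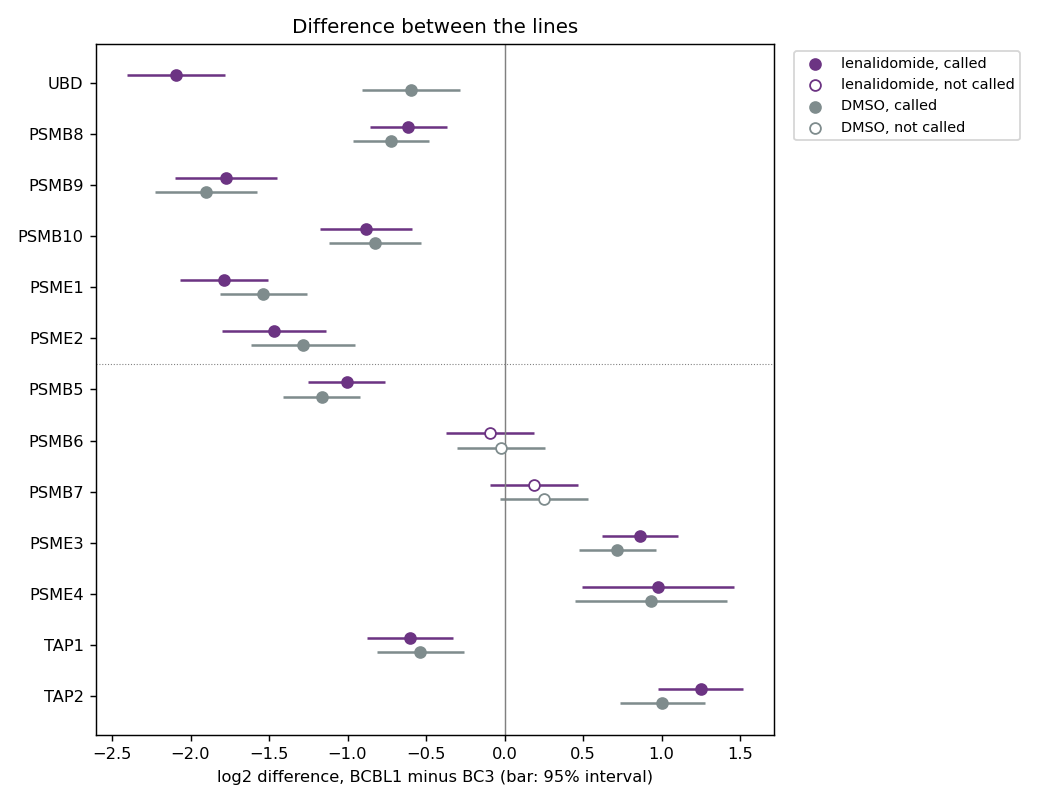
The log2 difference BCBL1 minus BC3 (x axis) under lenalidomide (purple) and DMSO (grey) for the 6 genes, above the dotted line, and for 7 related genes. Points are limma estimates from 2 arrays per group, bars are 95% intervals, and filled points passed an adjusted p of 0.05. All 6 members lie left of 0, from -0.59 to -2.09, while PSME3, PSME4 and TAP2 lie right of 0 and PSMB6 and PSMB7 are open points near 0.

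The other proteasome genes went both ways. Of the 31 tested, 11 were called higher and 3 lower in BCBL1 under lenalidomide, and 10 higher and 3 lower under DMSO, with medians of 0.15 and 0.07. PSMB5, the constitutive counterpart of PSMB8, was lower, with -1.01 ± 0.11 and -1.16 ± 0.11 in the same comparisons. PSMB6, the counterpart of PSMB9, had -0.09 ± 0.13 and -0.02 ± 0.13, and PSMB7, the counterpart of PSMB10, had 0.19 ± 0.13 and 0.25 ± 0.13, none of them called. Taken pair by pair, the log2 difference of the inducible minus the constitutive subunit was set in BCBL1 against BC3. Under DMSO, BCBL1 minus BC3 was 0.44 for PSMB8 over PSMB5, -1.88 for PSMB9 over PSMB6 and -1.08 for PSMB10 over PSMB7. The pairs therefore moved in different directions, and arrays of one group differed by up to 0.17, 0.31 and 0.49 in the same quantity.

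The other activators ran against PA28. PSME3, which forms the nuclear PA28 gamma cap, was higher in BCBL1 by 0.86 ± 0.11 under lenalidomide and 0.72 ± 0.11 under DMSO, and PSME4, the PA200 cap, by 0.98 ± 0.22 and 0.93 ± 0.22. In the 20S core PSMB1 was higher by 1.01 ± 0.14 and 0.71 ± 0.14, and PSMA6 was lower, with -0.41 ± 0.12 and -0.67 ± 0.12. In the 19S particle the ATPase gene PSMC4 was higher by 0.87 ± 0.12 and 0.91 ± 0.12. Among the assembly factors 2 of 9 were higher and 4 lower under lenalidomide, and 2 higher and 3 lower under DMSO, with PSMG4 lowest at -1.21 ± 0.13 and -1.15 ± 0.13. PSMG4 is one of 34 genes whose promoter windows hold the paired IRF motif printed above.

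In the FAT10 pathway 1 of 6 genes was higher in BCBL1 and 5 were lower, under each treatment. The activating enzyme gene UBA6 was higher, by 0.61 ± 0.20 under lenalidomide and 0.88 ± 0.20 under DMSO, while the gene of the conjugating enzyme UBE2Z was lower, with -1.06 ± 0.13 and -1.21 ± 0.13. The autophagy receptor gene SQSTM1, whose product binds FAT10, had -1.71 ± 0.13 and -2.11 ± 0.13. NUB1, whose product speeds the degradation of FAT10, had -0.70 ± 0.12 and -0.62 ± 0.12. ISG15 was lower than in BC3 as UBD was, with -2.78 ± 0.15 and -1.78 ± 0.15.

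Neighbours of the members on chromosome 6 did not all follow them. TAP1, between PSMB8 and PSMB9, was lower in BCBL1, with -0.60 ± 0.13 under lenalidomide and -0.54 ± 0.13 under DMSO. TAP2, on the other side of PSMB8, was higher, with 1.25 ± 0.12 and 1.01 ± 0.12, and its window holds the same motif. TAPBP, the gene of tapasin, which loads class I molecules, was lower, with -2.53 ± 0.11 and -2.88 ± 0.11. Over the 9 genes of peptide transport and trimming tested, 2 were higher and 4 lower under lenalidomide, and 1 higher and 4 lower under DMSO.

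Genes whose windows held the motif GAAAGCGAAA went both ways. Of 34 such genes 25 were tested, 4 of them members. Under lenalidomide 5 were higher and 12 lower in BCBL1, and under DMSO 6 were higher and 11 lower. Without the members the counts were 5 and 8 of 21 under lenalidomide and 6 and 7 of 21 under DMSO. The shares over all genes were 20.7% higher and 21.6% lower under lenalidomide, and 20.3% and 20.7% under DMSO. With lenalidomide against DMSO 2 of 25 were higher and 0 lower in BCBL1, and 1 was higher and 1 lower in BC3. Those shares over all genes were 2.18% and 0.755% in BCBL1, and 3.25% and 1.20% in BC3. DDO rose by 0.88 ± 0.12 in BCBL1. PARP14 rose by 0.58 ± 0.12 in BCBL1 and 1.11 ± 0.12 in BC3, and TNFRSF1B fell by 0.54 ± 0.12 in BC3.

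More regulators were called lower than higher in BCBL1. Of the 23 tested, 1 was higher and 6 lower under lenalidomide, and 1 higher and 9 lower under DMSO. Over all genes 20.7% were higher and 21.6% lower under lenalidomide, and 20.3% higher and 20.7% lower under DMSO. IRF9 had -2.22 ± 0.14 and -2.48 ± 0.14, IRF7 had -2.87 ± 0.15 and -2.32 ± 0.15, and IRF1 had -0.87 ± 0.12 and -1.18 ± 0.12. STAT3 was the gene that was higher, by 0.98 ± 0.13 and 0.96 ± 0.13. NLRC5, an activator of class I and immunoproteasome genes, was not called (limma's adjusted p = 0.712 and 0.990).

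Markers of other cell types also differed between the lines. Under DMSO the calls in BCBL1 were 2 higher and 3 lower of 7 plasma cell and immunoblast markers tested, 0 and 1 of 3 B-cell markers, 1 and 2 of 4 T and NK cell markers, 1 and 1 of 6 myeloid markers and 0 and 3 of 7 epithelial and stromal markers. Their part in the difference of the members was not tested. CD8A and NKG7 were above background on no array.

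The 5 genes other than UBD varied together over the 8 arrays, with pairwise Pearson r of 0.946 to 0.988, while UBD correlated with them at 0.638 to 0.748. The arrays fall into 2 lines, which any gene that differs between lines shares, so these are descriptions. Between 11.1% and 13.3% of all tested genes had an r over 0.9 with each of the 5, against 1.48% with UBD. The genes most like UBD were THAP1 (r = 0.992), TAF10 (r = 0.990) and IFIT1 (r = 0.986). IFIT1, an interferon-induced gene, had log2 changes of 0.11 in BCBL1 and 1.35 in BC3 with lenalidomide, those of THAP1 were 0.06 and 0.37, and those of TAF10 were 0.10 and 0.33. The genes most like PSMB8 were BCL2, CHDH and LDOC1, those most like PSMB9 were IAH1, ETS2 and CTSA, and those most like PSMB10 were MAGEA8, COL25A1 and DUSP3. SPTSSA, HLA-B and SNHG5 were most like PSME1, and BRI3, ICAM3 and FAM131A most like PSME2. HLA-B, a class I heavy chain gene, had an r of 0.999 with PSME1 and a log2 difference of -1.22 between BCBL1 and BC3 under DMSO.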

How the data were processed

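The intensity table that the authors deposited holds 47323 probes on a linear scale, and the unequal medians of its columns show that arrays were not yet normalized. A second table of log2 values was deposited for the same 8 arrays; per the submitters' processing notes limma was used, with no function or offset named. The log2 columns have rank correlations of 1 with single intensity columns, which named the arrays a and b of each group. From the intensities, 1 probe listed at 0 was dropped, background was corrected with limma's normexp method (offset 50), arrays were quantile-normalized and log2 was taken (R 4.3.3, limma 3.58.1). Detection p-values are not in the tables, so a probe counted as above background where its signal exceeded the background mode of its array at a one-sided normal p of 0.05. Probes above background on both arrays of a group were kept, 24097 in all, which gave 12719 genes.

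Probes were named through the platform annotation and RefSeq symbols (30113 with 1 symbol, 8 with several, 17201 with none here). The brightest probe stood for its gene, and a fit over all kept probes gave the values of the others. limma's lmFit and eBayes were run on all 8 arrays with a mean per group (4 residual and 8.76 prior degrees of freedom), Benjamini-Hochberg adjustment within a contrast and a threshold of 0.05.

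The members and the gene lists were chosen with earlier results of these data known. Named are all member probes, up to 4 called genes of a list and contrast, and the 3 genes most correlated with each member. Named outside that rule, after their values were seen, are uncalled or control genes set beside a member, DDO, PARP14, TNFRSF1B and the motif GAAAGCGAAA. The alternatives were offset 16, no background correction, other normalizations, other filters, single probes, the log2 table with and without a replicate block, the 4 arrays of a contrast, single arrays left out, and the cell line as replicate.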

Additional observations from a re-analysis of the deposited data

Results flagged for a closer look

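The effect of lenalidomide differed between BCBL1 and BC3 for UBD by -1.50 on the log2 scale (BCBL1 minus BC3, limma's adjusted p = 0.00501). The same test on the gene lists gave differences for 3 markers, -2.14 for MUC1 (adjusted p = 0.000212), -2.62 for S100A8 (adjusted p = 5.28e-05) and -2.38 for S100A9 (adjusted p = 7.35e-05). All of these effects were larger in BC3.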

How the results depend on the processing

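The rise of UBD in BC3 was called in all 17 alternatives that gave a value, with log2 changes of 1.49 to 2.51 and limma's adjusted p of 1.68e-06 to 0.00739, and UBD in BCBL1 in 0 of 17 (0.18 to 0.71). UBD under lenalidomide was called lower in BCBL1 in all 17, with -2.96 to -1.64. Requiring signal above background on all 8 arrays left UBD untested, so the count of members called in BC3 and the count called for the difference between lines were 0 of 5. The count for the difference was also 0 with offset 16 (UBD -1.62, adjusted p = 0.128), with the authors' deposited log2 values without a replicate block (-1.80, adjusted p = 0.152) and with the replicate block (-1.80, adjusted p = 0.235). The replicate numbers do not pair the arrays, with correlations of deviations between groups of -0.0763 to 0.0492. UBD under DMSO was called lower in BCBL1 in 16 of 17 alternatives. With the cell line as replicate, the UBD change over both lines was 1.11 with adjusted p = 0.0748, against 0.0124 with single arrays (a shared effect of lenalidomide in both). The line differences of the other 5 genes were called in all 180 fits. Their lenalidomide values, taken with the differences of the lenalidomide effect between lines, were called in 0 of 265, 17 of which changed sign. Over all genes the calls in BC3 ran from 209 to 463 higher and 48 to 230 lower, in BCBL1 from 124 to 325 and 27 to 175, and for the difference from 3 to 23 and 6 to 50. For BCBL1 over BC3 they ran from 1770 to 2644 higher and 2138 to 3332 lower under lenalidomide, and from 2191 to 2585 and 2086 to 2839 under DMSO. Tested singly, 475 probes were called higher and 161 lower in BC3, and 4184 and 4020 for BCBL1 over BC3 under lenalidomide. Leaving out single arrays gave 184 to 410 higher and 23 to 147 lower in BC3, and 128 to 259 and 23 to 80 in BCBL1. Scaling arrays to a common median shifted the median of all genes in BCBL1 to -0.11, which made 44.6% of its calls higher, against 74.3%, and 34.7% of the BCBL1 over BC3 calls under lenalidomide higher, against 48.9%. List counts changed by over 1.5 times, or to or from 0, in 68 of 1780 values.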
